A study of Mus musculus with 6 samples.

Results

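This account covers 10 growth factor genes of the PDGF, FGF, EGF and HGF families, 6 that encode ligands (Pdgfa, Pdgfb, Pdgfc, Fgf2, Hbegf and Hgf) and 4 that encode receptors (Pdgfra, Pdgfrb, Fgfr1 and Egfr). They were taken by gene symbol from the 22482 genes of the deposited mRNA table, and all 10 were found there. The cells were aortic vascular smooth muscle cells (VSMCs) of C57BL/6 mice, kept in DMEM, a standard culture medium, with 10% fetal bovine serum, and sequenced 48 h after adenovirus. In the labels, 3 libraries carry a Myocd knockdown adenovirus and 3 a negative control virus, while the design text names the second group wildtype cells, so whether it received virus is not certain. Myocd encodes myocardin, a coactivator of serum response factor that drives smooth muscle genes, and it ran against its label: it stood at 131.7, 130.1 and 145.5 FPKM in the knockdown-labelled libraries and at 0.0355, 0 and 0.125 in the control-labelled ones. The groups are therefore called knockdown-labelled and control-labelled throughout, and no direction relative to Myocd loss is drawn. FPKM is the number of sequenced fragments per kilobase of gene and per 1000000 fragments. No source says if the replicates are separate cultures or mice, so a p-value here reflects the scatter of these libraries alone, and that scatter may be technical.

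Growth factors of these families bind receptor tyrosine kinases at the cell surface, and the paired receptors phosphorylate each other and signal through RAS, ERK and PI3 kinase. PDGF is a classic stimulus for division and migration of VSMCs and is known to lower their contractile genes. FGF2 needs heparan sulfate as a coreceptor, HB-EGF is shed from the membrane by metalloproteases before it reaches EGFR at a distance, and HGF, typically made by mesenchymal cells, acts through the receptor MET. The cells grew in serum, which itself contains growth factors.

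In these libraries the ligands and receptors other than Pdgfb and Fgf2 stood at intermediate to high levels, and the differences between the groups were small. None of the 9 members that could be tested was called by limma, a linear model fitted across all genes on log2(FPKM + 0.1), at an adjusted p under 0.05 (Benjamini-Hochberg over 11612 genes). Limma called 3.44% of all tested genes, 1.83% higher and 1.61% lower. At an unadjusted p under 0.05, 3 members (Pdgfa, Hgf and Egfr, all higher in the knockdown-labelled libraries) passed, against 22.4% of all tested genes in either direction and 10.2% that were higher. The same 3 of the 9 had every library labelled knockdown above every library labelled control, and none had the opposite order. Of all tested genes, 13.3% were higher without overlap and 15.6% were lower. After median centring of the libraries, 5 members and 16.2% of all tested genes were higher without overlap. The median log2 fold change over the 9 members was 0.18, libraries labelled knockdown minus control, and over all tested genes it was -0.01. Because of the added 0.1, a fold change on this scale is too small for genes of low level. In these bulk samples fewer cells of a type and less RNA per cell cannot be told apart.

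The RefSeq promoter table (build GRCm38.p6) held 8 windows for 6 of the 10 members, each from 250 bases before to 50 bases after a transcript start. The windows were searched on both strands for the CArG box, the binding motif of serum response factor, and for TGANTCA (AP-1), GCGTGGGCG (EGR1) and GGAATG (TEAD). The 250 upstream bases are printed for Pdgfc, the only member with a match, and for Pdgfa and Hgf, the members of smallest p. They are written 5′ to 3′ on the strand of the gene, with motif matches in capitals. The Pdgfc bases are chr3:81036166-81036415 (plus strand), those of Pdgfa are chr5:138994945-138995194 (minus strand) and those of Hgf are chr5:16553245-16553494 (plus strand).
Pdgfc: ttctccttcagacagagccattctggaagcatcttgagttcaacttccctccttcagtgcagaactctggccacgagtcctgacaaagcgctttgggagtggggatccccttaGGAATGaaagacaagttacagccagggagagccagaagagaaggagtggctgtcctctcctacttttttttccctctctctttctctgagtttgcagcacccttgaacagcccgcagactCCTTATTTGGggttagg
Pdgfa: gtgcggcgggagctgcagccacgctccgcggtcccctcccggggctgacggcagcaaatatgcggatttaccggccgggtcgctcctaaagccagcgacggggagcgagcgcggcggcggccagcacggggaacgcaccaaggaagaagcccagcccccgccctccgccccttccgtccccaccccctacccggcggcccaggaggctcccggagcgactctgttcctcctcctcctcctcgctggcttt
Hgf: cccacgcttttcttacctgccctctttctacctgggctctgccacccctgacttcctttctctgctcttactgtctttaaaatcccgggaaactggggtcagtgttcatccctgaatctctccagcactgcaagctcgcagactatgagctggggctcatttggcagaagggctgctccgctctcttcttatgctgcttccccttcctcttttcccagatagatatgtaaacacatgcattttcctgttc
In Pdgfc the second run of capitals, CCTTATTTGG, matches the CArG box and lies 17 to 8 bases before the start. The first run, GGAATG, matches the TEAD motif 137 to 132 bases before the start, and another TEAD match lies 39 to 44 bases after it. Over all 32851 windows of the table, 1.63% held a CArG box, 7.81% the AP-1 motif, 0.612% the EGR1 motif and 14.7% the TEAD motif. The Pdgfa window is rich in G and C (73.3%, with 37 CpG dinucleotides in its 300 bases), whereas the median window had 52.7% and 7. It starts inside the Pdgfa locus of the deposited table, so it belongs to an internal start, as does the other Pdgfa window. A match is a description of letters, and no match says nothing about a factor.

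By mean FPKM over the 6 libraries the order was Fgfr1 (95.1), Hgf (30.1), Pdgfa (24.5), Pdgfra (16.2), Pdgfc (15.5), Hbegf (15.0), Egfr (12.2), Pdgfrb (10.3), Fgf2 (2.62) and Pdgfb (0.133). Fgfr1 lay above 93.8% of all tested genes, Pdgfrb above 41.5% and Fgf2 above 13.3%. The 3 neighbours Pdgfra, Pdgfc and Hbegf overlapped in both groups and cannot be ordered. Pdgfa overlapped with Pdgfra in the control group only, and Egfr with Pdgfrb in the knockdown-labelled libraries only. All other neighbours were apart in FPKM in both groups. Fgfr1 was thus the most abundant receptor transcript of the 4, and Hgf the most abundant ligand transcript of the 6. The place of Fgf2 above Pdgfb rests on FPKM. In the knockdown-labelled libraries Fgf2 had 8, 7 and 7 fragments and Pdgfb 8, 5 and 4. The Fgf2 level is therefore uncertain, and its FPKM and count columns are compared below.

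**Figure D1:**
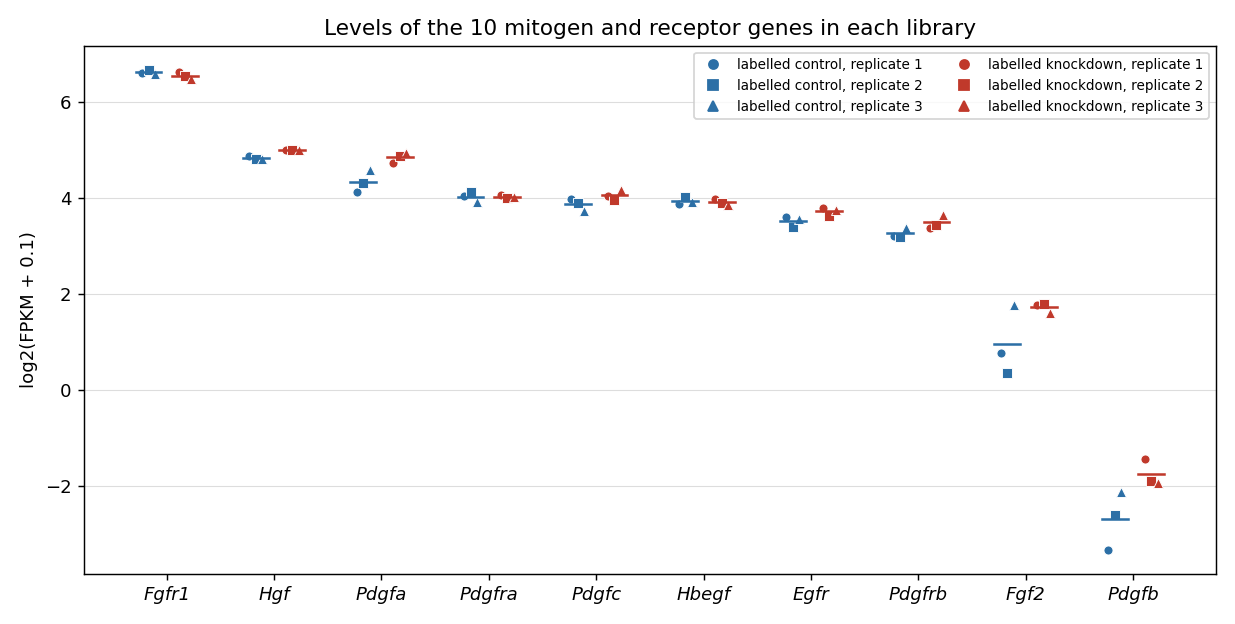
Level of each of the 10 genes in each library as log2(FPKM + 0.1), with points for the 3 libraries labelled knockdown and the 3 labelled control and a bar at each group's mean of the plotted values. Fgfr1 lies highest in all libraries and Pdgfb lowest, and among the tested genes the 2 groups stand apart for Pdgfa, Egfr and Hgf.

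Pdgfa encodes PDGF-A, a ligand of the PDGF alpha receptor (ENSMUSG00000025856, minus strand of chromosome 5, 138976014 to 139000576, mm10). It stood at 26.5, 29.1 and 30.5 FPKM in the knockdown-labelled libraries (replicates 1, 2 and 3) and at 17.3, 19.6 and 23.9 in the control-labelled ones. The groups did not overlap, and replicate 3 was the highest library of each. The group means of 28.7 ± 2.04 and 20.2 ± 3.36 FPKM (SD, n = 3 each) gave a ratio of 1.42. The limma log2 fold change was 0.51 (SE 0.12, 95% interval 0.23 to 0.79), with an adjusted p of 0.0667. Of all tested genes, 7.43% differed by as much in either direction. Without control replicate 3 the log2 fold change was 0.64 and the call was made (limma adjusted p = 0.0395), and over the 20 alternatives run the adjusted p ranged from 0.0328 to 0.171.

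The count columns gave a smaller Pdgfa difference than the FPKM columns. The deposited counts are estimated fragment numbers times a constant per library, and divided by that constant they gave 428, 420 and 363 Pdgfa fragments in the knockdown-labelled libraries and 352, 359 and 398 in the control-labelled ones. Per 1000000 fragments these were 46.9, 47.0 and 48.2 against 35.9, 38.6 and 42.8, a ratio of 1.21, again without overlap. EdgeR's quasi-likelihood test on the fragment numbers gave a log2 fold change of 0.30 (adjusted p = 0.0341), and DESeq2 gave 0.30 (adjusted p = 0.0858). EdgeR called 2 of the 8 members that passed its own filter, Pdgfa and Hgf, both higher, whereas it called 9.95% of all genes tested and 5.45% as higher. DESeq2 called none of the 8 members to which it gave an adjusted p and 7.42% of all genes. At an unadjusted p under 0.05, edgeR passed 5 of its 8 members, beside 27.1% of the 11563 genes that met its filter. DESeq2, which gave all 10 members an unadjusted p, passed 4, beside 13.4% of 15552 genes. No level filter was set for DESeq2, so the 2 shares are not on the same genes.

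Hgf encodes hepatocyte growth factor (ENSMUSG00000028864, plus strand of chromosome 5, 16553550 to 16619439). Its values were 31.9, 32.0 and 31.5 FPKM in the knockdown-labelled libraries and 29.2, 27.9 and 27.8 in the control-labelled ones. All libraries of a group lay close together and the groups did not overlap. The means were 31.8 ± 0.224 and 28.3 ± 0.776 FPKM, and the limma log2 fold change was 0.17 (SE 0.05, 95% interval 0.05 to 0.28, adjusted p = 0.108). EdgeR gave 0.18 with an adjusted p of 0.0266, and over the 20 alternatives the adjusted p ranged from 0.0266 to 0.245. The difference was thus small and the call depended on the tool.

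Pdgfc encodes PDGF-C, another ligand of the alpha receptor (ENSMUSG00000028019, plus strand of chromosome 3, 81036416 to 81214040), and its promoter window held the CArG box. It stood at 16.2, 15.4 and 17.9 FPKM in the knockdown-labelled libraries and at 15.7, 14.8 and 13.1 in the control-labelled ones, and the groups overlapped. The log2 fold change was 0.18 (SE 0.09, 95% interval -0.04 to 0.40, limma adjusted p = 0.296). It was 0.11 without control replicate 3 (adjusted p = 0.530) and 0.05 without both replicate 3 libraries (adjusted p = 0.734). The ratio of Pdgfa to Pdgfc was 1.74 ± 0.134 in the knockdown-labelled libraries and 1.41 ± 0.369 in the control-labelled ones (exact permutation p = 0.3, two-sided, where 3 against 3 libraries cannot go below 0.1).

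Pdgfb encodes PDGF-B, the ligand best known for stimulating VSMCs and typically made by endothelial cells and platelets (ENSMUSG00000000489, minus strand of chromosome 15, 79995900 to 80014808). It was the member that did not reach the minimum of 0.5 FPKM in 3 libraries. Its recovered fragments were 8, 5 and 4 in the knockdown-labelled libraries and 0, 2 and 4 in the control-labelled ones, and 0 counts leave room for as many as 3 fragments. The FPKM values were 0.269, 0.171 and 0.161 against 0, 0.0655 and 0.129, each group near the limit of detection. Summed over a group there were 17 fragments against 6, a depth-adjusted ratio of 3.15 with a 95% interval of 1.18 to 9.74 that covers counting error only. With the filter dropped, limma gave an adjusted p of 0.227 and edgeR one of 0.299.

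Hbegf encodes the membrane-anchored EGF receptor ligand HB-EGF (ENSMUSG00000024486, minus strand of chromosome 18, 36504929 to 36515805). It measured 15.7, 14.7 and 14.3 FPKM in the knockdown-labelled libraries and 14.6, 16.1 and 14.9 in the control-labelled ones, so the groups overlapped. Limma gave a log2 fold change of -0.03 (SE 0.07, 95% interval -0.20 to 0.14, adjusted p = 0.839).

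Fgf2 encodes basic fibroblast growth factor, and its FPKM and count columns went in opposite directions. It stood at 3.32, 3.37 and 2.94 FPKM in the knockdown-labelled libraries and at 1.60, 1.18 and 3.29 in the control-labelled ones. Control replicate 3 lay within the range of the other group, and the other control libraries lay below it. The log2 fold change was 0.77 (SE 0.34, 95% interval -0.03 to 1.56, limma adjusted p = 0.238), while it was 1.17 without control replicate 3 (adjusted p = 0.0593) and 0.46 without control replicate 2 (adjusted p = 0.471). The fragments told otherwise: 8, 7 and 7 were recovered in the knockdown-labelled libraries and 10, 7 and 17 in the control-labelled ones. Summed over the groups these were 22 and 34, a depth-adjusted ratio of 0.718 with a 95% counting interval of 0.400 to 1.26. DESeq2 gave a log2 fold change of -0.46 and edgeR with no filter gave -0.45 (adjusted p = 0.622), so no direction can be given for Fgf2 from these files.

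The count divided by FPKM, a measure of the gene length that the FPKM values imply, showed where the columns parted. For Hgf it was between 27.7 and 28.0 in every library, and for Pdgfra it was between 69.6 and 69.9. For Fgf2 it was 2.38, 2.10 and 2.85 in the knockdown-labelled libraries and 5.74, 5.73 and 4.98 in the control-labelled ones, a log2 difference of -1.17. For Pdgfa it was 16.0, 14.6 and 14.3 against 18.7, 17.7 and 16.0, a log2 difference of -0.23. These were the 2 of 9 tested members whose groups did not overlap in this quotient and differed by at least 1.1-fold, a limit chosen after the values were seen. Of 11548 tested genes, 6.11% met it. For Fgfr1 and Egfr the quotient varied among libraries of both groups, from 30.0 to 33.2 and from 67.2 to 79.4. The cause of the unequal quotients was not tested.

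**Figure D2:**
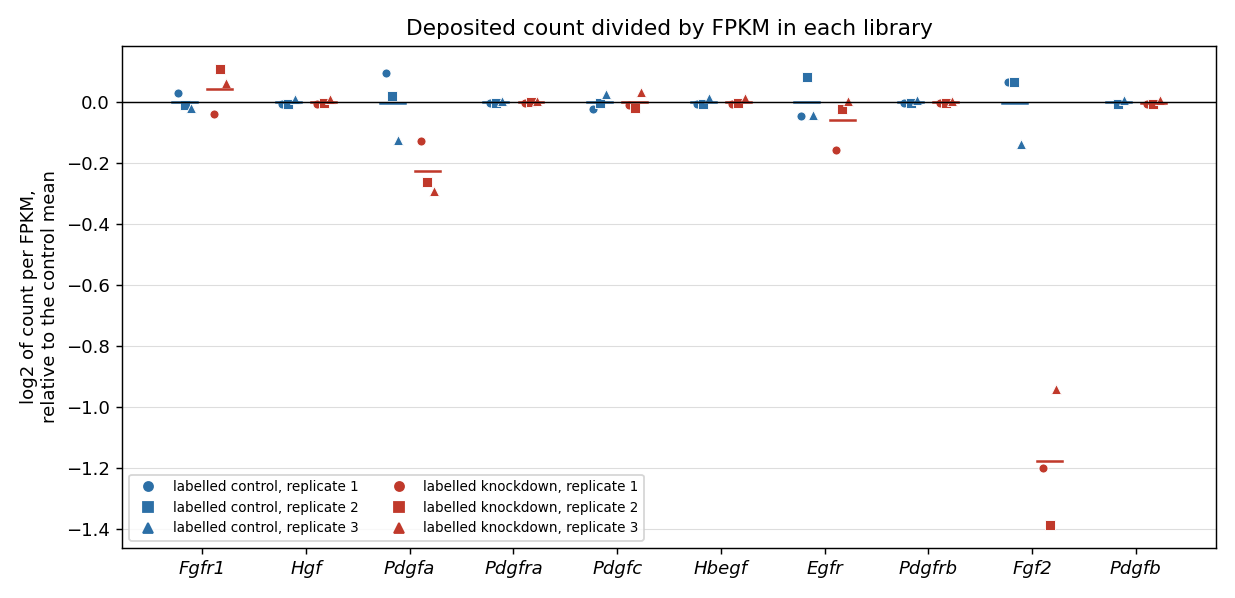
Deposited count divided by FPKM for each member in each library, as log2 relative to the mean of the control libraries (points, coloured by group, with a bar at each group's mean). Hgf, Pdgfra, Pdgfrb and Hbegf lie near 0 in all libraries, whereas the libraries labelled knockdown lie below 0 for Pdgfa (log2 ratio of the group means -0.23) and Fgf2 (-1.17).

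The Fgf2 locus of the deposited table (ENSMUSG00000037225, plus strand of chromosome 3, 37307749 to 37579096) is wider than the RefSeq gene (37348477 to 37410106). It spans 4 other coding genes, Bbs12, Cetn4, Nudt6 and Spata5. Nudt6 lies antisense to Fgf2 and overlaps it, and whether strand was used in counting is not given in the sources used here. Without strand, reads of the pair cannot be told apart, so the Fgf2 values are uncertain. Nudt6 stood at 2.83, 2.76 and 2.64 FPKM in the knockdown-labelled libraries and at 3.93, 6.47 and 4.15 in the control-labelled ones, without overlap (limma log2 fold change -0.76, SE 0.20, adjusted p = 0.0842). Its fragments were 21, 25 and 21 against 33, 38 and 45 (edgeR adjusted p = 0.144), so both columns gave Nudt6 the same direction. Bbs12, Cetn4 and Spata5 overlapped between the groups.

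Among the receptors, Fgfr1, the main FGF receptor of mesenchymal cells (ENSMUSG00000031565, plus strand of chromosome 8, 25513654 to 25575714), measured 97.4, 92.3 and 88.7 FPKM in the knockdown-labelled libraries and 96.5, 101.0 and 94.7 in the control-labelled ones. The groups overlapped, with means of 92.8 ± 4.38 and 97.4 ± 3.24 FPKM. Its log2 fold change was -0.07 (SE 0.05, 95% interval -0.19 to 0.05, limma adjusted p = 0.448). It rested on 2384 to 3313 fragments a library, the most of any member.

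Pdgfra, the PDGF alpha receptor, is also a fibroblast marker (ENSMUSG00000029231, plus strand of chromosome 5). Its values were 16.5, 15.8 and 16.0 FPKM in the knockdown-labelled libraries and 16.4, 17.4 and 14.9 in the control-labelled ones. The knockdown range lay inside the control range. The log2 fold change was -0.003 (95% interval -0.18 to 0.17, limma adjusted p = 0.986), and its sign turned under 9 of the 20 alternatives, with values up to 0.05. The table's locus, 74535449 to 75309709, spans the coding genes Chic2, Fip1l1, Gsx2 and Lnx1 as well.

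Pdgfrb, the PDGF beta receptor, is the receptor for PDGF-B and is well known in VSMCs and pericytes (ENSMUSG00000024620, plus strand of chromosome 18, 61045150 to 61085061). It stood at 10.3, 10.8 and 12.5 FPKM in the knockdown-labelled libraries and at 9.09, 9.05 and 10.3 in the control-labelled ones. The lowest knockdown library and the highest control library met at 10.3 FPKM, and replicate 3 was the highest of each group. The log2 fold change was 0.23 (SE 0.10, 95% interval -0.01 to 0.47, limma adjusted p = 0.236), and without knockdown replicate 3 it was 0.15 (adjusted p = 0.415). The ratio of Pdgfra to Pdgfrb was 1.46 ± 0.161 in the knockdown-labelled libraries and 1.72 ± 0.249 in the control-labelled ones (exact permutation p = 0.3).

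Egfr, the EGF receptor (ENSMUSG00000020122, plus strand of chromosome 11, 16752203 to 16918158), measured 13.7, 12.2 and 13.3 FPKM in the knockdown-labelled libraries and 12.0, 10.4 and 11.6 in the control-labelled ones. The groups did not overlap, but knockdown replicate 2 and control replicate 1 were close. The means were 13.1 ± 0.779 and 11.3 ± 0.840 FPKM, with a log2 fold change of 0.20 (SE 0.09, limma adjusted p = 0.218). Per 1000000 fragments Egfr stood at 101.8, 99.8 and 111.3 against 97.2, 91.7 and 94.6. The ratio of Fgfr1 to Egfr was 7.12 ± 0.464 in the knockdown-labelled libraries and 8.64 ± 0.941 in the control-labelled ones (exact permutation p = 0.1, the smallest that 3 against 3 can give).

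**Figure D3:**
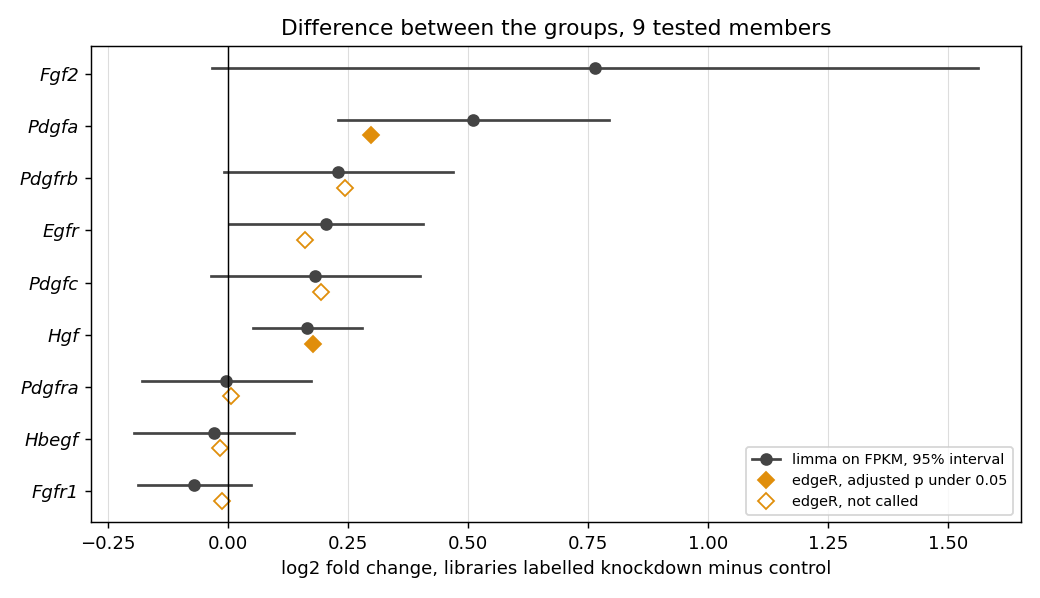
Log2 fold change of the 9 tested members, libraries labelled knockdown minus control, with the limma value and its 95% interval beside the edgeR value where edgeR gave one. Pdgfa lies farthest from 0 among the members whose interval excludes 0 (0.51 by limma, 0.30 by edgeR), Hgf has a narrow interval (0.05 to 0.28), and Fgf2 has the widest (-0.03 to 1.56).

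The rest of the pathway was read from 10 lists with 193 genes, of which 191 were in the table and 145 were tested. Limma called 2 of these genes higher and 5 lower for the knockdown-labelled libraries, or 4.83% of those tested, beside 3.44% of all genes. EdgeR called 12 higher and 15 lower of 146, against 5.45% and 4.5% of all genes. The 5 lower genes were all in the list of 20 ERK and SRF early targets, which holds immediate early genes beside later targets and regulators such as Srf and Elk1. They were Egr1, Fos, Ier2, Junb and Egr2, with limma log2 fold changes of -0.48, -0.49, -0.55, -0.32 and -0.37, and Egr2 was named after its values were seen. Egr1, Fos and Ier2 kept the call under all 20 alternatives, whereas Junb and Egr2 each lost it when replicate 1 or 2 of either group was left out, with an adjusted p of up to 0.0606 and 0.0766. The median log2 fold change of this list was -0.12, while that of all tested genes was -0.01.

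The 2 genes called higher act upstream or at the receptor. Plau encodes urokinase, a protease that can activate HGF, and it measured 24.6, 23.9 and 25.8 FPKM in the knockdown-labelled libraries and 19.9, 20.4 and 18.8 in the control-labelled ones (limma log2 fold change 0.33, SE 0.06, adjusted p = 0.0376). Ptprj encodes a receptor-type tyrosine phosphatase known to act on growth factor receptors, and it measured 22.0, 21.9 and 20.6 against 16.3, 16.6 and 17.2 FPKM (log2 fold change 0.36, SE 0.06, limma adjusted p = 0.0281). Neither gene overlapped between the groups. Plau lost its call when any single library was left out (adjusted p of up to 0.111), and Ptprj when any library other than knockdown replicate 3 was left out (up to 0.105).

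Within the 4 lists of other family genes, limma called none of 30 tested genes. In the list of 3 tested HGF family genes, Met, the HGF receptor, measured 37.6, 35.0 and 39.0 FPKM in the knockdown-labelled libraries and 31.8, 33.8 and 27.6 in the control-labelled ones. These groups did not overlap (log2 fold change 0.26, SE 0.09, limma adjusted p = 0.136). On fragments the Met difference was smaller, with an edgeR log2 fold change of 0.11 (adjusted p = 0.150). Ptn, the heparin-binding growth factor pleiotrophin, stood at 4.54, 3.28 and 5.11 against 2.47, 2.95 and 1.74 FPKM (log2 fold change 0.83, SE 0.24, limma adjusted p = 0.104, edgeR 0.0339, and 0.0197 to 0.271 over the alternatives). Erbb2, the EGF family coreceptor, stood at 10.3, 9.64 and 9.61 against 13.8, 12.2 and 11.6 FPKM (log2 fold change -0.34, SE 0.09, limma adjusted p = 0.0845, edgeR 0.0165, and 0.0144 to 0.205 over the alternatives). Among the other EGF receptor ligands, Areg had means of 29.4 and 27.7 FPKM and Ereg 42.9 and 41.6, both above Hbegf.

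Of the FGF family genes, Fgf7, an epithelial growth factor made by mesenchymal cells, was by far the most abundant at 349.9 and 334.8 FPKM. It was named for its level after the values were seen. EdgeR called Fgf7 higher by a small log2 fold change of 0.11 (adjusted p = 0.0420), whereas limma did not (0.06, adjusted p = 0.319). Over the alternatives its adjusted p ranged from 0.0418 to 0.755. Fgf10 stood at 17.7 and 15.5 FPKM, and Fgf11 at 1.87 and 1.05 (limma adjusted p = 0.147). Erbb4 and 9 FGF family genes, Fgf3 and Fgf8 among them, had 0 FPKM in all libraries. In the PDGF and VEGF family, Csf1 had means of 155.2 and 176.0 FPKM and Figf, which encodes VEGF-D, 14.0 and 12.4, and neither was called.

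The lists of coreceptors, adaptors and kinases had medians near 0 (0.003 over 21 genes, 0.03 over 25 and -0.0005 over 19), and limma called none of these genes. EdgeR called 6 coreceptor genes higher (Cd44, Nrp2, Sdc2, Sdc3, Sulf1 and Sulf2) and 2 lower (Gpc1 and Ndst2). Sulf1, which trims heparan sulfate, had means of 16.4 and 13.3 FPKM (limma adjusted p = 0.0614), and Gpc1, a heparan sulfate proteoglycan, 142.0 and 157.8 (0.0711). Among 20 tested feedback inhibitors, Spry2, which restrains ERK signalling, stood at 26.3 ± 1.73 and 32.7 ± 1.99 FPKM (log2 fold change -0.31, limma adjusted p = 0.0637, edgeR 0.0186, and 0.00978 to 0.156 over the alternatives).

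**Figure D4:**
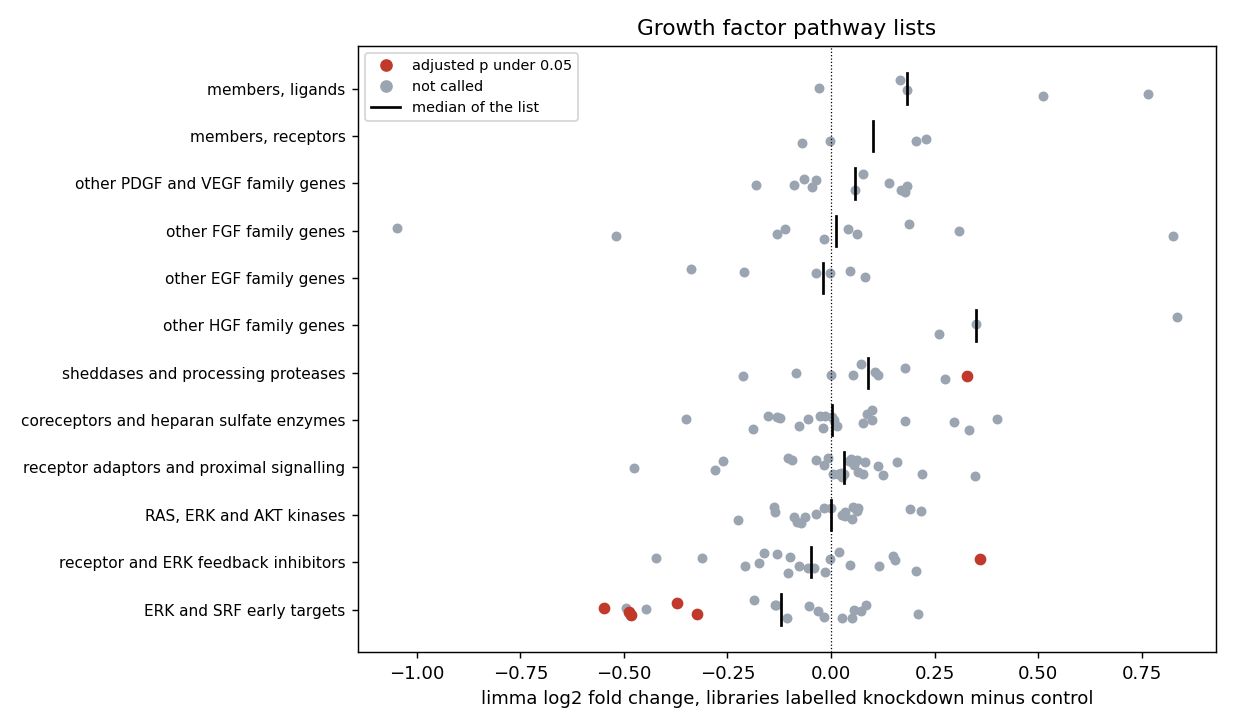
Limma log2 fold change of every tested gene (points) in the 10 pathway lists and, in the top 2 rows, the member ligands and receptors, libraries labelled knockdown minus control, with a bar at the median of each list and coloured points for genes at an adjusted p under 0.05. The 5 coloured points below 0 all lie in the list of ERK and SRF early targets (median -0.12), and the 2 above 0 are Plau and Ptprj.

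Of the deposited long noncoding transcripts, 10 were paired with 6 of the members, and none passed the minimum of 0.1 FPKM in 3 libraries. Of these, 8 were at 0 in all libraries. E230015J15Rik (ENSMUST00000150329), an antisense transcript in an intron of Egfr, had 2, 3 and 1 fragments in the knockdown-labelled libraries and 13, 7 and 3 in the control-labelled ones. The higher counts were in the control libraries, with overlap at 3. With the filter dropped, its log2 fold change was -0.79 (limma adjusted p = 0.554).

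The summed FPKM of smooth muscle markers stood apart between the groups. That of endothelial markers did so only through Vwf, while the sums for the other cell types overlapped. The part of these sums and of replicate differences in the member values was not tested. The summed FPKM of 12 smooth muscle markers was 913 to 971 in the knockdown-labelled libraries and 439 to 494 in the control-labelled ones. Limma called 5 of 10 tested markers higher, namely Acta2, Actg2, Des, Lmod1 and Myocd. Without Myocd and Acta2 (340.2 and 67.2 FPKM), the other 10 markers summed to 450 to 484 and 376 to 423 FPKM. Among these, Actg2 had means of 15.5 and 0.464 FPKM, Des 124.0 and 108.0, and Lmod1 0.733 and 0.0774. Tagln (7.52 and 0.637) and Cald1 (180.8 and 152.2) were called higher by edgeR but not by limma. Smtn (56.5 and 57.6), Mylk (7.74 and 7.31) and Tpm2 (72.7 and 68.7) were called by neither. Cnn1 (0.275 and 0.0270) and Myh11 (0.0604 and 0.0132), which define mature smooth muscle, were under the minimum level but higher without overlap. Apart from Acta2, Cald1, Des and Myocd, these markers were named after their values were seen. The 10 fibroblast markers, with Ly6a, Col3a1 and Col1a1 highest, summed to 1357 to 1589 and 1292 to 1461 FPKM, and 7 pericyte markers, with Kcnj8 at 0, to 67.2 to 69.1 and 68.1 to 70.1. The 10 mesothelial and epithelial markers, with Epcam and Krt5 at 0, summed to 302 to 326 and 320 to 354 FPKM. The 10 endothelial markers summed to 1.30 to 2.47 and 0.468 to 1.22 FPKM, with Emcn at 0 and 9 of them under the minimum level. Only Vwf was tested, with means of 1.24 and 0.185 FPKM. Limma called it higher (adjusted p = 0.0346), whereas edgeR did not (adjusted p = 0.0869). Vwf, at 1.16, 0.963 and 1.61 FPKM, made up most of the endothelial sum in each knockdown-labelled library. Of the other endothelial markers, Pecam1 (means 0.262 and 0.307 FPKM), Cdh5 (0.113 and 0.163), Tie1, Kdr, Erg and Egfl7 had lower means in the knockdown-labelled libraries. Tek and Cldn5 had higher ones. The 10 macrophage and leukocyte markers summed to 20.6 to 24.5 and 22.4 to 26.4 FPKM, with Cd3e and Tyrobp among those at 0. With group in the model, 1588 genes differed between replicate 3 and the other replicates at an unadjusted limma p under 0.05, whereas 438 did so for replicate 1 and 417 for replicate 2. Limma called 1 of them after adjustment. Among the members, Pdgfa was higher in replicate 3 by 0.26 on the log2 scale (adjusted p = 0.306) and Pdgfrb by 0.21 (adjusted p = 0.298). With both replicate 3 libraries left out, no member was called, as in the main fit. Pdgfa then had a log2 fold change of 0.59 (limma adjusted p = 0.0668), beside 0.51 (0.0667) with all libraries.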

How the data were processed

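Total RNA freed of ribosomal RNA was made into stranded libraries, per the labels' protocols. HISAT2 2.0.4, cutadapt, Cuffdiff 2.2.1 and Cufflinks are listed as tools per the submitters' processing notes, as are mm9 and mm10 with no role. The sources used here give no annotation release. The authors deposited FPKM values and, beside them, estimated counts per gene. The low values of each deposited count column were whole multiples of a constant. Dividing by it gave 90.2% to 90.4% of values within 0.01 of a whole number in the knockdown-labelled libraries and 90.1% to 90.4% in the control-labelled ones, and the fragments were then rounded. The depth was 7528153 to 9793781 fragments a library, and intervals and limits from fragments cover counting error only. Chi-square per gene between libraries of a group was 2.40 to 5.85, so none was a copy. Rows of 79 repeated symbols were summed.

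Limma 3.58.1 (R 4.3.3), with an intensity trend, was run on log2(FPKM + 0.1), with a single term for group, for genes with at least 0.5 FPKM in 3 of 6 libraries. Two-sided p-values were adjusted over all tested genes (Benjamini-Hochberg), at 0.05. EdgeR 4.0.16 (quasi-likelihood, TMM) and DESeq2 1.42.0 on the fragments were alternatives, since FPKM values are not counts. The limma, edgeR and DESeq2 fits were tested on simulated data at their main settings, and the other steps and settings were not. Other alternatives were the pseudocount, filter, trend, weights, quantile and median scaling, the replicate number as a block and leaving out libraries. Exact permutation tests of single values were two-sided. Motifs and levels were described without a test.

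Coordinates are those of the table with 1 added to the start. With it 6101 starts equalled the GRCm38 (mm10) RefSeq start, and without it 459 did. Named genes are the 10 members, Myocd, up to 4 genes of smallest limma p in each pathway list, the 3 highest markers of a cell type with those at 0, and the 3 genes most like the member of smallest p. Further genes are marked as named after their values were seen, or stand in a list's count of calls. Some genes that the rule would name are not reported here. The members and the lists were chosen with earlier results of these data known.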

Additional observations from a re-analysis of the deposited data

How the results depend on the processing

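Of the 9 tested members, 0 were called higher by limma. EdgeR called 2 with its filter and 2 with no filter (the last chosen after seeing the data), library weights called 1, the replicate block 1, and leaving out single libraries 0 to 1, in each of these limma settings Pdgfa. Pdgfa was past the threshold at a log2 fold change of 0.30 (edgeR), 0.29 (edgeR with no filter), 0.55 (library weights) and 0.51 (replicate block, adjusted p = 0.0442), and leaving out single libraries gave 0.40 to 0.64. Hgf was past it at 0.18 (edgeR) and 0.17 (edgeR with no filter). Same-numbered libraries had deviations correlated at 0.0375, -0.00394 and 0.0999, the last, for replicate 3, being the highest of all pairs. Knockdown replicate 1 correlated best with control replicate 2 (0.0588). Whether libraries of the same number share a batch was not tested. Pdgfra turned to 0.0064 (edgeR), 0.0044 (DESeq2), 0.018 (quantile normalization), 0.021 (median centring) and 0.0031 (edgeR with no filter), and ran from -0.063 to 0.048 without single libraries. Fgf2 turned to -0.46 (DESeq2) and -0.45 (edgeR with no filter), and edgeR's filter removed it. Hbegf ran from -0.066 to 0.012 without single libraries. Members higher without overlap numbered 5 after median centring, which added Pdgfc and Pdgfrb and moved the median gene by 0.024.

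Of the pathway genes, limma called 2 higher and 5 lower. Higher calls numbered 12 (edgeR), 10 (edgeR with no filter), 8 (DESeq2), 1 (no trend), 0 (replicate block), 0 (both replicate 3 libraries left out) and 0 to 1 without single libraries. Lower calls numbered 15, 16 and 11 with the same 3 count settings, 9 (library weights), 3 (both replicate 3 libraries left out) and 3 to 5 without single libraries. For the 39 pathway genes of smallest p in their lists, 779 single values were computed under the alternatives: 721 kept their side and direction, 23 lost the call, 35 gained it and 0 turned. Unless named above, the cause was not tested. Depth limits Pdgfb, Fgf2 and the noncoding transcripts, with at most 17 fragments a library.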

Other observations

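Fgfr2, which encodes another FGF receptor, was under the minimum level and was named after its values were seen. It stood at 0.0437, 0 and 0.0779 FPKM in the knockdown-labelled libraries and at 0.469, 0.243 and 0.626 in the control-labelled ones, with no overlap. The ratio of the FPKM means was 0.0909. On fragments the difference was smaller, since DESeq2 gave a log2 fold change of -2.02 with an unadjusted p of 0.113. Fgf9 and Nrg4, named after their values were seen and also under the minimum level, were likewise lower without overlap, whereas Pdgfb was higher. The share of all genes under the minimum level that did not overlap is not given here.

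The genes whose profile over the 6 libraries was most like that of Pdgfa, by the root mean square difference of centred log2(FPKM + 0.1) among 11034 genes, were Kif26b (0.0688), Tmem39a (0.0713) and Mgarp (0.0716). Kif26b stood at 2.01, 2.02 and 2.03 FPKM in the knockdown-labelled libraries and at 1.22, 1.42 and 1.61 in the control-labelled ones. Tmem39a stood at 33.2, 33.2 and 39.4 against 23.2, 24.9 and 30.4, and Mgarp at 16.2, 18.0 and 18.7 against 12.1, 12.7 and 14.7. For Tmem39a, as for Pdgfa, the edgeR log2 fold change on fragments (0.14) was smaller than the limma value on FPKM (0.44). It was not smaller for Kif26b (0.50 by edgeR, 0.49 by limma) or Mgarp (0.54 by edgeR, 0.43 by limma).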
